A study of Mus musculus with 9 samples.

Results

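Livers of 3 double KO mice, which had lost SMRT and NCoR in that organ, were compared with livers of 3 control mice, which carried floxed alleles of both genes and no deletion. The comparison set 6 of the 9 arrays of the series against each other. It covered 22180 genes, each read through the probe set with a single gene symbol and the highest mean over the 9 arrays. The remaining 3 arrays came from SMRT KO mice, which lacked SMRT in the liver. These arrays entered the shared estimate of the spread in the test, but not the difference itself. The labels write these genotypes as SMRT and NCoR KO, SMRT and NCoR fl/fl and SMRT KO. Which Ncor1 allele SMRT KO mice carried was not stated there, and neither was the Cre line or promoter behind the liver-specific deletion. All 9 animals were euthyroid females (normal thyroid hormone status) of 7 to 9 weeks, on a mixed 129SV/B6 background, kept on standard chow in a 12 h light and dark cycle. Each liver was an individual mouse and gave 200 ng of RNA for 1 array. The numbers 1 to 3 only name the mice of a group.

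NCoR and SMRT are large scaffold proteins that unliganded nuclear receptors recruit to DNA. They bring in the histone deacetylase HDAC3, which removes acetyl groups from histones, and so hold target genes at a low level. In liver they are best known for restraining lipid synthesis genes driven by the thyroid hormone receptor and by the oxysterol receptor LXR. The comparison asks across genes what changes in liver when both scaffolds are missing.

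Transcripts of the targeted genes were not analysed here, so the genotypes rest on the labels. Hepatocyte markers were high in every liver, with an average over the 8 measured genes of 12.45 to 12.49 in controls and 12.25 to 12.32 in double KO livers (log2 units, as are all levels below). Array medians lay between 5.96 and 6.02. The averages of 12 macrophage, 10 endothelial and 10 lymphocyte markers overlapped between the groups, and none of those genes passed the test. Of the lymphocyte markers, 5 had both group means under 5.96, a background mark defined below. In bulk liver, fewer cells of a type and less RNA per cell cannot be told apart.

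Loss of both corepressors changed 187 of 22180 genes, a share of 0.843%. These had an adjusted p below 0.05 in limma, a linear model with a spread shared across genes, fitted on all 9 arrays with Benjamini-Hochberg adjustment. Of them, 116 genes (0.523% of those tested) rose and 71 (0.320%) fell. The rises reached further than the falls: 48 of the 116 rose at least 2-fold and 12 at least 4-fold, whereas 15 of the 71 fell at least 2-fold and 1 at least 4-fold. The median log2 fold size was 0.80 for rises and 0.71 for falls. All of these are measured folds, which are uncertain for genes near background. Of the rises, 22 had a control mean under 5.96, the background mark defined below, and of the falls, 8 had a double KO mean under it. In control livers the genes that rose had a median level of 7.58 and those that fell one of 8.95, beside 6.35 over all genes. Over all genes the median log2 fold change was 0.0036, with 51.3% above 0. In 3323 genes (15.0%) the 3 values of a group lay wholly above those of the other, and this held for all 187 called genes. Separate groups, where given below for a called gene, therefore add no support to its call. A further 57 of the 120 genes whose means differed at least 2-fold did not pass.

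**Figure D1:**
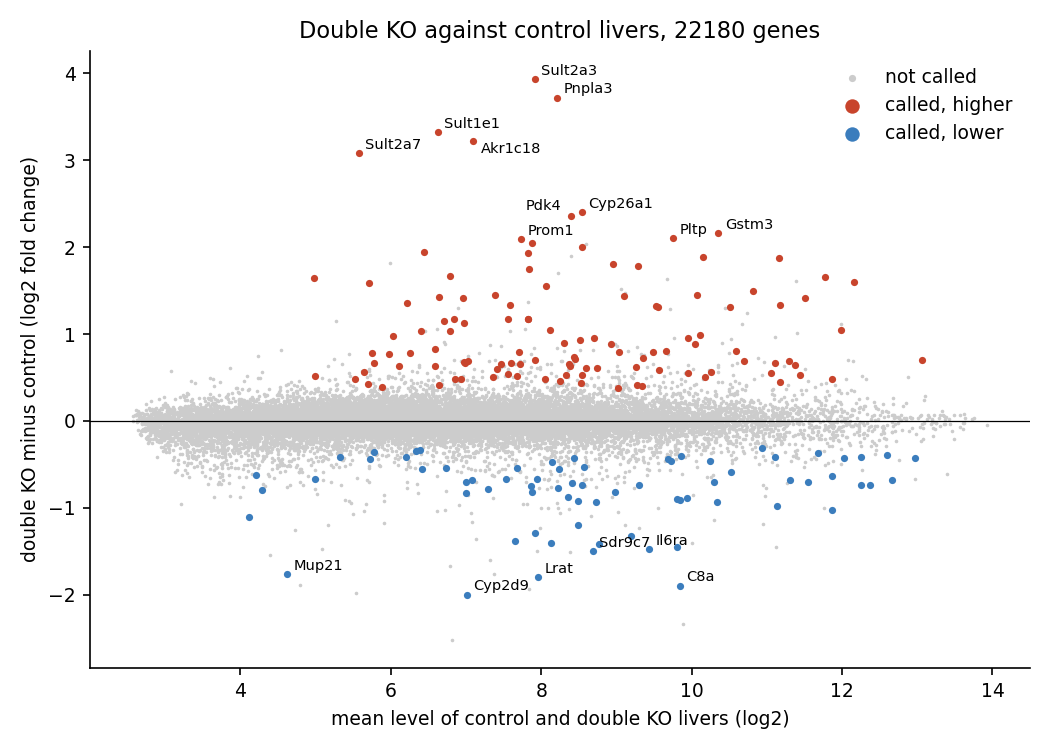
Each point is a gene, with the mean log2 level of control and double KO livers on the horizontal axis and the log2 fold change (double KO minus control) on the vertical axis. Red points are the 116 genes that rose and blue points the 71 that fell at an adjusted p below 0.05, with the labelled rises from 2.09 (Prom1) to 3.94 (Sult2a3) and the falls down to -2.001 (Cyp2d9).

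The count depended on single mice. It was 90, 61 and 91 without double KO mouse 1, 2 or 3, 91, 179 and 83 without control mouse 1, 2 or 3, and 159 to 175 without a SMRT KO mouse, and 51 genes (35 higher and 16 lower) were called in all 9 of these fits. A call described below as held in all 9 fits refers to this set. No called gene turned direction under any setting that was run. Because the groups of every called gene do not overlap, leaving out 1 mouse could not have turned its direction.

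Among 32 pathway lists, fatty acid synthesis had the most members that rose. There were 6 rises among 22 sulfotransferases and 8 among 32 genes known to be higher in female than in male liver, and complement and male-biased genes were the lists with the lowest medians apart from the major urinary proteins. Of the called genes, 74 of the 116 that rose and 51 of the 71 that fell belonged to none of the lists. Lists are described by counts and medians, without a test of the list itself.

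**Figure D2:**
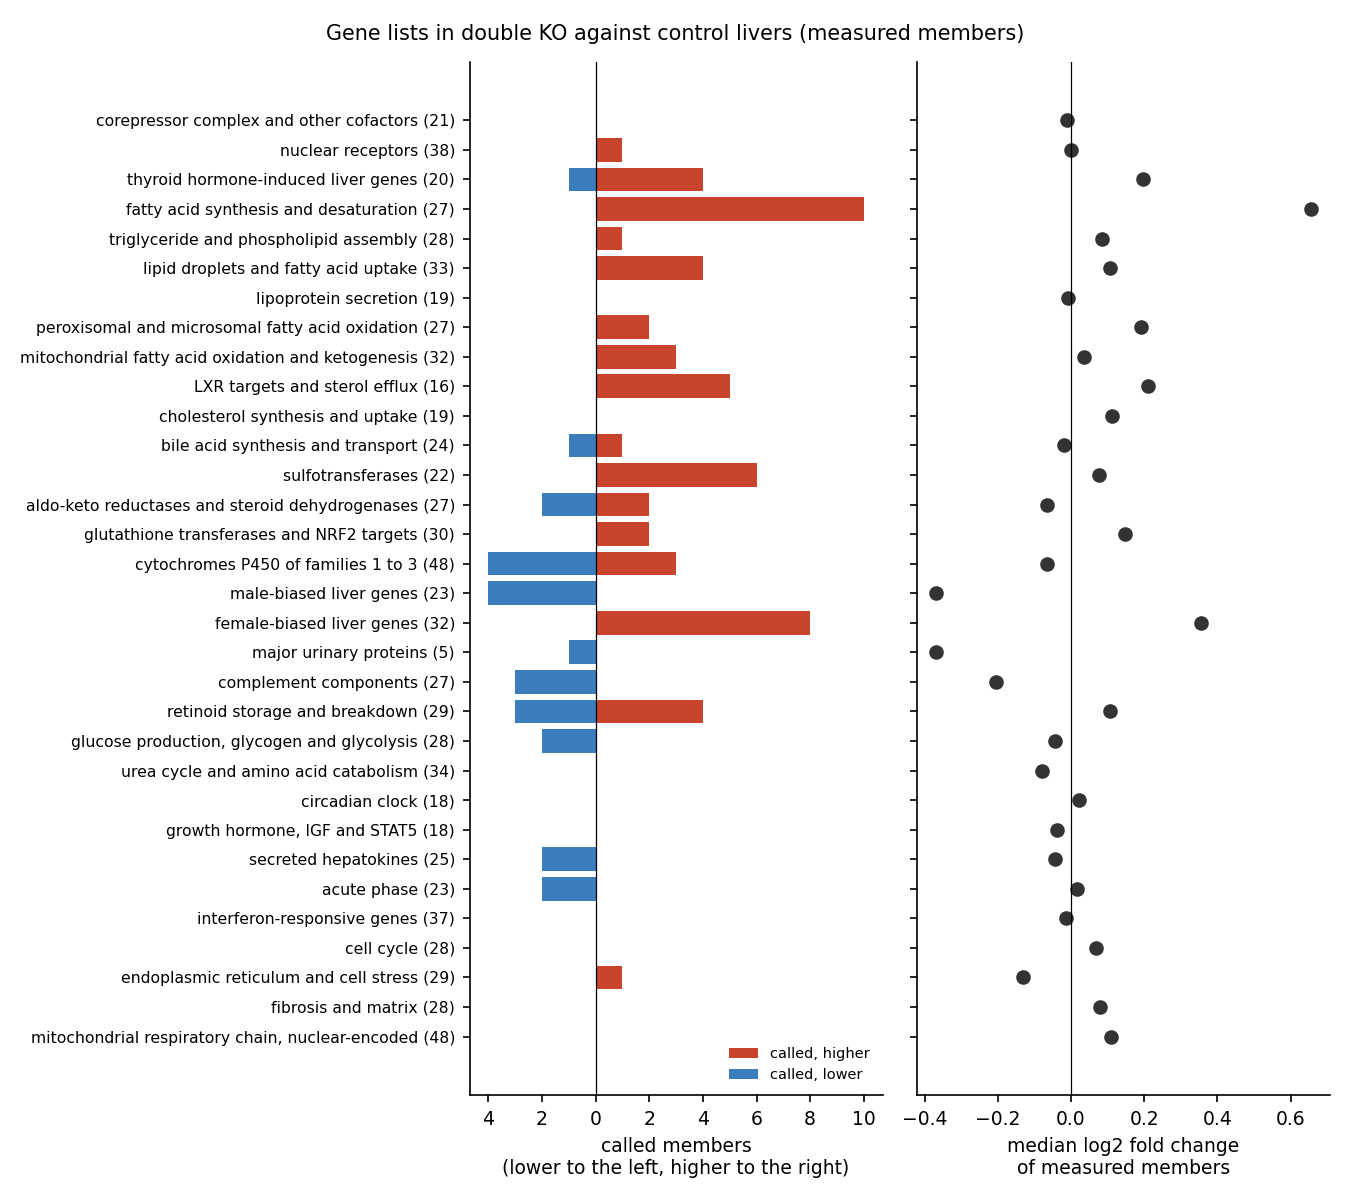
The left panel gives for each pathway list the number of members that rose (red, to the right) and fell (blue, to the left) at an adjusted p below 0.05, and the right panel the median log2 fold change of its measured members, whose number is in parentheses. Fatty acid synthesis stands out on the left with 10 rises and 0 falls and on the right with a median of 0.66.

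The list of fatty acid synthesis and desaturation also holds Pnpla3 and regulators such as Mlxipl and Insig2, which do not build fatty acids themselves. It had 10 rises, 0 falls and 17 genes without a call among the 27 measured. All 27 had a log2 fold change above 0, with a median of 0.66 beside 0.0036 over all genes. The other called members span the pathway from the supply of NADPH through chain building to desaturation. The largest rise belonged to Pnpla3, a patatin-like lipase of lipid droplets. Its promoter is shown with that of Elovl6, the elongase that lengthens palmitate, as the members of this list with the largest rises. The windows run from 250 bases before the transcription start to 50 bases after it (RefSeq, GRCm38.p6), at chr15:84167566-84167865 on the plus strand for Pnpla3 and chr3:129532136-129532435 on the plus strand for Elovl6. Capitals mark matches to AGGTCA, the half-site that many nuclear receptors bind, on either strand.
Pnpla3: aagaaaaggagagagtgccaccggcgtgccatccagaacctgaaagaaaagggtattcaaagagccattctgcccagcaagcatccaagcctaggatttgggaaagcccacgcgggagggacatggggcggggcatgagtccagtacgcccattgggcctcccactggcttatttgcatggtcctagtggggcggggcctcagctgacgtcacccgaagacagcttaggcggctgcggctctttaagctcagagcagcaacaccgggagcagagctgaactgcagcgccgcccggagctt
Elovl6: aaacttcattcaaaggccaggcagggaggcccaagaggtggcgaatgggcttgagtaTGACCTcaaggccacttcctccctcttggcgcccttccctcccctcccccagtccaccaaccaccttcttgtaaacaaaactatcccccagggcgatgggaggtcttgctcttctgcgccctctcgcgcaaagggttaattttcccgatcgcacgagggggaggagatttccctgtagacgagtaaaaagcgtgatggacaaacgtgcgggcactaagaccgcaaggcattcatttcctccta
The Elovl6 window holds 1 match, on the minus strand 193 bases before the start, and the Pnpla3 window none.

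Pnpla3 read 6.32, 6.32 and 6.41 in the 3 control livers and 10.46, 10.02 and 9.74 in the 3 double KO livers. The groups lay far apart, and each double KO liver stood more than 3 log2 units above every control. The rise was 13.2-fold (log2 fold change 3.72, with a standard error of 0.150, adjusted p = 1.66e-05). Its call held in all 9 fits. Samm50, the next gene on the chromosome and a mitochondrial outer membrane assembly factor, rose 1.48-fold (log2 fold change 0.56, adjusted p = 0.0195). Samm50 was chosen after its values were seen. On the other side, Pnpla5 changed by 0.36 (adjusted p = 0.278).

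Elovl6 read 10.45, 9.97 and 10.25 in controls and 12.03, 12.07 and 12.17 in double KO livers, a 3.66-fold rise (standard error 0.234 on the log2 scale, adjusted p = 0.00821). The double KO values were close together and all above the controls. Acaca, the acetyl-CoA carboxylase of the cytosol that makes malonyl-CoA for synthesis, read 9.47, 9.37 and 9.60 against 10.47, 10.50 and 10.33 and rose 1.93-fold (adjusted p = 0.00692). Acacb, its counterpart at the mitochondrion, read 9.03, 8.50 and 9.16 against 10.06, 10.36 and 10.21 and rose 2.48-fold (adjusted p = 0.0182). Neither carboxylase overlapped between the groups. Fasn, the fatty acid synthase, read 11.59, 11.26 and 11.56 in controls and 12.57, 12.60 and 12.38 in double KO livers, a 2.06-fold rise (adjusted p = 0.0184).

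Me1, the malic enzyme that supplies NADPH, read 10.76, 10.68 and 10.97 in controls and 12.28, 12.22 and 12.14 in double KO livers and rose 2.66-fold (adjusted p = 0.0195). Pgd, another NADPH source in the pentose phosphate pathway, rose 1.65-fold (adjusted p = 0.0182), and so did Rpia of the same pathway, chosen after its values were seen, at 1.34-fold (adjusted p = 0.0317). Scd1, the desaturase that makes oleate, rose 1.63-fold, from 12.71 ± 0.0534 to 13.42 ± 0.0546 (SD, n = 3 each, adjusted p = 0.0195). Both regulators that passed act on this pathway. Mlxipl, which encodes the carbohydrate-responsive factor ChREBP, rose 1.61-fold (adjusted p = 0.0129). Insig2, which holds SREBP precursors in the endoplasmic reticulum, rose 1.84-fold (adjusted p = 0.0225).

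Elovl6 and Acaca kept their calls in all 9 fits, with adjusted p between 0.000776 and 0.0490 and between 0.00286 and 0.0478 over all alternatives, and the other called members except Pnpla3 each lost their call in some of these fits. Those of Me1, Fasn, Scd1 and Samm50 were lost when any control or double KO mouse was left out, those of Acacb and Pgd without control mouse 1 or any double KO mouse, that of Insig2 without control mouse 1 or 3 or any double KO mouse, that of Rpia without any of 7 single mice, and that of Mlxipl without double KO mouse 1 or 2. Over all alternatives the adjusted p lay between 0.0012 and 0.0942 for Me1, 0.00786 and 0.0942 for Fasn, 0.00604 and 0.0942 for Scd1, 0.0108 and 0.0942 for Acacb, 0.0105 and 0.0937 for Pgd, 0.0132 and 0.0920 for Insig2, 0.0178 and 0.133 for Rpia, 0.00737 and 0.0670 for Mlxipl and 0.00964 and 0.0859 for Samm50.

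Several well-known members did not pass. Thrsp, the thyroid hormone-responsive lipogenic factor known as Spot 14, read 10.23, 9.00 and 10.14 in controls and 11.04, 11.27 and 10.98 in double KO livers (log2 fold change 1.30, with a standard error of 0.380, adjusted p = 0.217). The groups did not overlap, and control mouse 2 stood well below the other two. Acss2, which activates acetate, had a log2 fold change of 0.97 (adjusted p = 0.120), and Srebf1, which encodes the lipogenic factor SREBP1, one of 0.62 (adjusted p = 0.230). Fads1, the delta-5 desaturase, had 0.22 (adjusted p = 0.189).

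**Figure D3:**
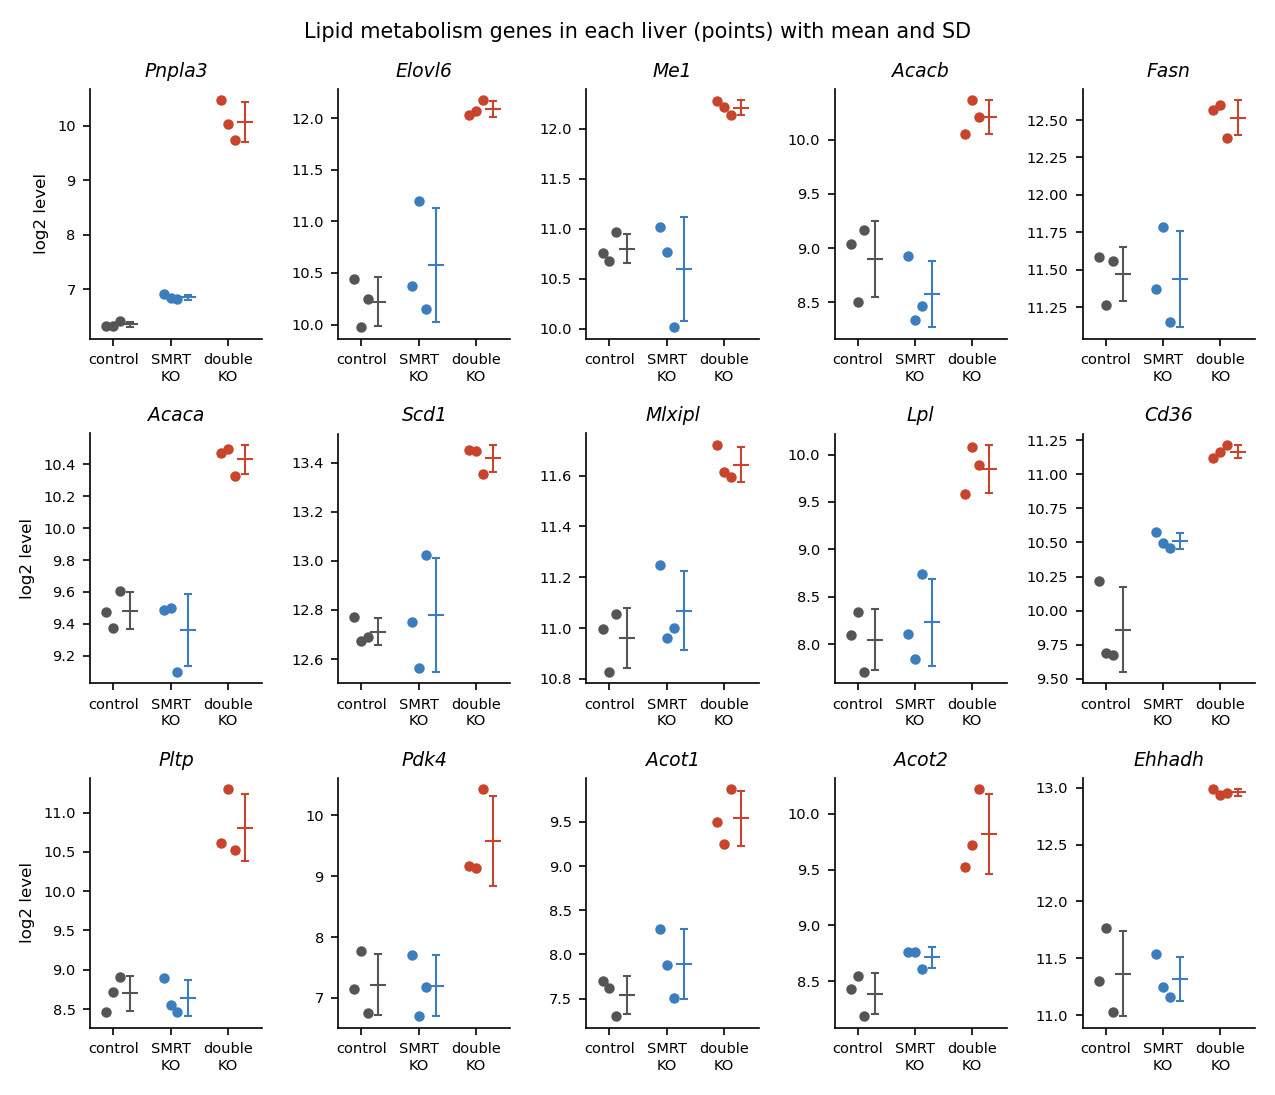
Points are the log2 levels of single livers (grey control, blue SMRT KO, red double KO), with the mean and SD beside each group of 3, for genes of fatty acid synthesis, uptake, LXR-linked lipid transfer and oxidation. In every panel the double KO livers lie above the controls, from Mlxipl with a difference of 0.68 to Pnpla3 with 3.72. All are called genes, and every called gene that rose has this separation.

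Short sequence matches near the start sites were counted in changed genes and in all genes with a RefSeq window. AGGTCA on either strand occurred in the windows of 16.4% of 16990 genes, in 20 of 96 genes that rose (20.8%), in 11 of 57 that fell (19.3%) and in 2 of the 9 called synthesis genes with an entry, Elovl6 and Acacb. CACGTG, the E-box core bound by ChREBP and clock factors, was found in 9.19% of genes, 12.5% of those that rose and 8.77% of those that fell. TCACNCCAC, a sterol regulatory element, was found in 1.43% of genes, 4 of the 96 that rose (4.17%) and 1 of the 57 that fell (1.75%). Both of these patterns have a match in a window of 1 called synthesis gene, Mlxipl. The spaced repeats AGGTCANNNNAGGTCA and AGGTCANAGGTCA, which contain the half-site, had matches in 0 and 11 genes, none of them called. These windows cover 300 bases, and a match is a run of letters only.

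Genes for uptake and storage of fatty acids rose in smaller number. Among 33 measured members of this list, 4 rose, 0 fell and 29 did not pass (median 0.11). Lpl, the lipoprotein lipase that frees fatty acids from circulating triglyceride, read 8.09, 8.34 and 7.71 in controls and 9.58, 10.08 and 9.90 in double KO livers. Its groups were well apart, with a 3.49-fold rise (log2 fold change of 1.80, standard error of 0.238, adjusted p = 0.0108). A dimmer second probe set of Lpl gave 0.37. Cd36, the fatty acid translocase, read 10.22, 9.69 and 9.67 in controls and 11.12, 11.17 and 11.22 in double KO livers and rose 2.48-fold (adjusted p = 0.00309), a call held in all 9 fits. SMRT KO livers were in between, at 10.58, 10.49 and 10.46.

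The droplet proteins that passed were Plin2, which coats lipid droplets, and Fitm1, which promotes droplet formation. Plin2 read 11.05, 11.18 and 10.96 in controls and 11.73, 11.57 and 11.80 in double KO livers, a 1.56-fold rise (adjusted p = 0.0160). Fitm1 rose 2.07-fold (adjusted p = 0.0276), while its second probe set gave a log2 fold change of 0.19. None of 4 measured adipocyte markers passed, and their average was 5.40 to 5.71 in controls and 5.38 to 5.44 in double KO livers. Of these 4, 2 had both group means under 5.96, a background mark defined below, so they say little about adipocyte content. Fabp2, a fatty acid binding protein, had a log2 fold change of 0.56 (adjusted p = 0.129). The Lpl call was lost without double KO mouse 2 or 3, that of Plin2 without control mouse 1 or 3 or double KO mouse 1 or 3, and that of Fitm1 without SMRT KO mouse 1, control mouse 2 or 3 or any double KO mouse, with adjusted p over all alternatives between 0.00458 and 0.0670, 0.00873 and 0.0694, and 0.0132 and 0.112.

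Assembly of triglyceride and phospholipid showed a single rise among 28 measured members (median 0.08), that of Lpcat3, which loads polyunsaturated chains onto phospholipids (1.44-fold, adjusted p = 0.0367). Gpam, the first acyltransferase of glycerolipid synthesis, had a log2 fold change of 0.36 (adjusted p = 0.0920) and Acsl5, an acyl-CoA synthetase, one of 0.43 (adjusted p = 0.0628). None of 19 lipoprotein secretion genes passed (median -0.01). There, Mttp, which loads lipid onto apolipoprotein B, had 0.30 (adjusted p = 0.108) and Apom, an apolipoprotein of HDL, had -0.25 (adjusted p = 0.220).

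Lpcat3 also belongs to the 16 measured targets of LXR, of which 5 rose, 0 fell and 11 did not pass (median 0.21). Lpl and Scd1 are shared with the lists above. Pltp, which transfers phospholipids between lipoproteins, read 8.47, 8.72 and 8.91 in controls and 10.61, 11.29 and 10.52 in double KO livers. The lowest double KO liver lay above the highest control by more than 1 log2 unit, and the rise was 4.31-fold (log2 fold change 2.11, with a standard error of 0.207, adjusted p = 0.00304), held in all 9 fits. Abcg5, half-transporter for sterol export into bile, rose 1.47-fold (adjusted p = 0.0263), and its partner Abcg8 had a log2 fold change of 0.46 (adjusted p = 0.0990). Cholesterol synthesis and uptake had 0 of 19 members called at a median of 0.11, with Tm7sf2, a sterol reductase, at 0.53 (adjusted p = 0.0574). Abcg5 lost its call without control mouse 1 or 3 or any double KO mouse, and Lpcat3 without any of 8 single mice, with adjusted p over all alternatives between 0.0154 and 0.127 and between 0.0219 and 0.136.

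Oxidation genes changed in a few members. Peroxisomes shorten long chains, and of 27 genes listed for peroxisomal and microsomal fatty acid oxidation together 2 rose and 0 fell (median 0.19). Ehhadh, the bifunctional enzyme of peroxisomal beta-oxidation, read 11.30, 11.76 and 11.03 in controls and 12.99, 12.93 and 12.96 in double KO livers. The controls spread widely and the double KO livers hardly at all, with no overlap. Its rise was 3.02-fold (log2 fold change 1.59, with a standard error of 0.168, adjusted p = 0.00357) and held in all 9 fits. Acaa1b, the peroxisomal thiolase, rose 2.52-fold (adjusted p = 0.0114). Abcd3, a peroxisomal fatty acid importer, had 0.48 (adjusted p = 0.0898), and Acot6 had 0.49 (adjusted p = 0.205).

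The list of mitochondrial oxidation and ketogenesis had 3 rises and 0 falls among 32 members, with a median of 0.03. The 3 that rose were Pdk4, Acot1 and Acot2, none of them an enzyme of beta-oxidation or ketogenesis itself. Pdk4, the kinase that shuts off pyruvate dehydrogenase, read 7.14, 7.76 and 6.75 in controls and 9.17, 9.13 and 10.43 in double KO livers and rose 5.13-fold (log2 fold change 2.36, with a standard error of 0.391, adjusted p = 0.0281). Double KO mouse 3 was the highest, and all 3 double KO livers stood above all controls. Acot1, a cytosolic thioesterase that splits acyl-CoA, read 7.70, 7.61 and 7.30 against 9.50, 9.25 and 9.87 and rose 4.01-fold (adjusted p = 0.00357). Its mitochondrial neighbour Acot2 read 8.43, 8.54 and 8.18 against 9.52, 9.72 and 10.22 and rose 2.70-fold (adjusted p = 0.00540). Both held in all 9 fits. These paralogs are adjacent and alike in coding sequence, and whether their probe sets share signal was not tested. Their start-site windows matched at 33.3% of the 300 bases in a global alignment with gaps.

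Fgf21, the fasting hormone that PPAR-alpha switches on, read 5.97, 6.12 and 5.81 in controls and 5.97, 5.96 and 5.83 in double KO livers, with overlapping groups (log2 fold change -0.04, with a standard error of 0.138, adjusted p = 0.9502). These values lie close to 5.96, the background mark defined below, so they say little about whether Fgf21 changed. Pdk1, another kinase of pyruvate dehydrogenase, had 0.44 (adjusted p = 0.136), and Acot13 had 0.25 (adjusted p = 0.288). The Pdk4 call was lost without SMRT KO mouse 3, control mouse 1 or 3 or any double KO mouse, and that of Acaa1b without any double KO mouse, with adjusted p over all alternatives between 0.0174 and 0.120 and between 0.00488 and 0.0610.

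A further 6 called genes are given singly, all chosen after their values were seen, and they stand for no list. Acot11, a thioesterase, rose 2.26-fold (adjusted p = 0.0141). Crat, the carnitine acetyltransferase, rose 2.50-fold (adjusted p = 0.0486), with control mouse 2 at 9.53 and the other controls at 8.55 and 8.52, and its second probe set gave a log2 fold change of 0.27. Dlat, a subunit of the pyruvate dehydrogenase complex, rose 1.33-fold (adjusted p = 0.0262), and Pdp2, the phosphatase that reactivates that complex, rose 1.39-fold (adjusted p = 0.0420). Coq8a, needed for coenzyme Q synthesis, rose 1.75-fold (adjusted p = 0.0405), and Ddhd1, a phospholipase, rose 1.73-fold (adjusted p = 0.0357). None of 48 respiratory chain genes encoded in the nucleus passed, and 44 of the 48 lay above 0 at a median of 0.11. Acot11 lost its call without double KO mouse 2 or 3, Dlat without control mouse 1 or 2 or any double KO mouse, and Crat, Pdp2, Coq8a and Ddhd1 without 7 or 8 of the 9 mice in turn, with adjusted p over all alternatives of up to 0.0795, 0.122, 0.180, 0.142, 0.174 and 0.155.

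Enzymes that add sulfate to steroids gave the largest fold change of the comparison. Of 22 sulfotransferase genes, with the sulfate donor synthases among them, 6 rose, 0 fell and 16 did not pass, and the median of the list was 0.08. Of these 6, 5 belong to the Sult2a family, which sulfates hydroxysteroids and bile acids. Promoters of 2 of them are shown because the genes are close paralogs that rose together. The windows lie at chr7:14122999-14123298 on the minus strand (Sult2a3) and chr7:13623717-13624016 on the plus strand (Sult2a5), from RefSeq, GRCm38.p6. In a global alignment with gaps, which shifts one window against the other, 81.7% of the 300 bases matched. Both windows hold none of the motifs spelled out above on either strand.
Sult2a3: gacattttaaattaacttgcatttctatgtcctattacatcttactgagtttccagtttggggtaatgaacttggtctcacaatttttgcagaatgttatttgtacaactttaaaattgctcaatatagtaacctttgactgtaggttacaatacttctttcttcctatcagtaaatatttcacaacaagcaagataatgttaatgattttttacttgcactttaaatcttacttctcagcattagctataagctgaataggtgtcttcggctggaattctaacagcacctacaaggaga
Sult2a5: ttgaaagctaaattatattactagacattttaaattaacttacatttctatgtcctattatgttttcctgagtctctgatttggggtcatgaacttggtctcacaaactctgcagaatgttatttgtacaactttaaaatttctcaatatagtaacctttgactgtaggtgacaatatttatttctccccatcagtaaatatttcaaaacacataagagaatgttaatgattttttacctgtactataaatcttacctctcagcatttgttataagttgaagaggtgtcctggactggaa

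Sult2a3 read 6.20, 5.67 and 5.97 in controls and 10.06, 10.30 and 9.30 in double KO livers. The groups were separated by more than 3 log2 units, and the rise was 15.3-fold (log2 fold change 3.94, with a standard error of 0.446, adjusted p = 0.00508). Sult2a7 read 3.78, 4.31 and 4.03 against 7.24, 7.75 and 6.37 and rose at least 2.23-fold (adjusted p = 0.00304). Control values of Sult2a7 and Sult2a5 all lay under 5.96, as did 1 control of Sult2a3. This is the level below which 95% of olfactory and vomeronasal receptor genes lie here. For genes whose controls all lie there, a fold is a lower bound, taken against controls set to that level. Sult2a5 read 5.80, 5.32 and 5.28 against 7.74, 7.24 and 7.24 and rose at least 2.73-fold (adjusted p = 0.00116). Sult2a1 read 10.46, 9.63 and 10.09 against 11.58, 11.63 and 11.48 and rose 2.83-fold (adjusted p = 0.00835). Sult2a4 rose 2.25-fold, from 6.25 ± 0.303 to 7.43 ± 0.125 (SD, n = 3 each, adjusted p = 0.00639). In all 5 genes each double KO liver was above each control, as in every called gene that rose.

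Sult2a2, another member, had a log2 fold change of 0.70 (adjusted p = 0.0670). Sult1e1, the sulfotransferase that inactivates estrogens, read 4.66, 4.67 and 5.56 in controls and 7.33, 8.70 and 8.84 in double KO livers and rose at least 5.02-fold (measured log2 fold change 3.32, with a standard error of 0.385, adjusted p = 0.00540). All its controls lay under 5.96, and double KO mouse 1, the lowest of its group, was above every control. Papss2, which makes the sulfate donor, had 0.52 (adjusted p = 0.0631). Of these calls all but that of Sult2a1 held in all 9 fits, and Sult2a1 was lost without double KO mouse 2 (adjusted p = 0.0565, range 0.00274 to 0.0565 over all alternatives). Whether the probe sets of these similar genes share signal was not tested.

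Steroid reductases and dehydrogenases moved in both directions, with 2 rises, 2 falls and 23 members that did not pass (median -0.07). Akr1c18, which reduces progesterone to an inactive alcohol, read 5.94, 5.33 and 5.15 in controls and 8.74, 8.26 and 9.11 in double KO livers and rose at least 6.68-fold (measured log2 fold change 3.23, with a standard error of 0.265, adjusted p = 0.00106), held in all 9 fits. All its controls lay under 5.96, and its lowest double KO value was over 2 log2 units above the highest of them. Dhrs9, which acts on 3-alpha-hydroxysteroids and retinol, rose 2.57-fold, from 5.54 ± 0.379 to 6.90 ± 0.105 (SD, n = 3 each, adjusted p = 0.0118), with 2 of its 3 controls under 5.96. Sdr9c7, a short-chain dehydrogenase, read 9.04, 9.77 and 9.51 against 8.10, 7.32 and 8.39 and fell by 1.503 log2 units (adjusted p = 0.0346). Hsd3b2, a 3-beta-hydroxysteroid dehydrogenase, fell by 0.93 (adjusted p = 0.0421), its relative Hsd3b3 had -0.64 (adjusted p = 0.152), and Akr1c14 had -0.45 (adjusted p = 0.0699). Dhrs9 lost its call without control mouse 1 or double KO mouse 2 or 3, Sdr9c7 without 7 and Hsd3b2 without 8 of the 9 mice in turn, with adjusted p over all alternatives between 0.00463 and 0.0670, 0.0180 and 0.136, and 0.0159 and 0.174.

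**Figure D4:**
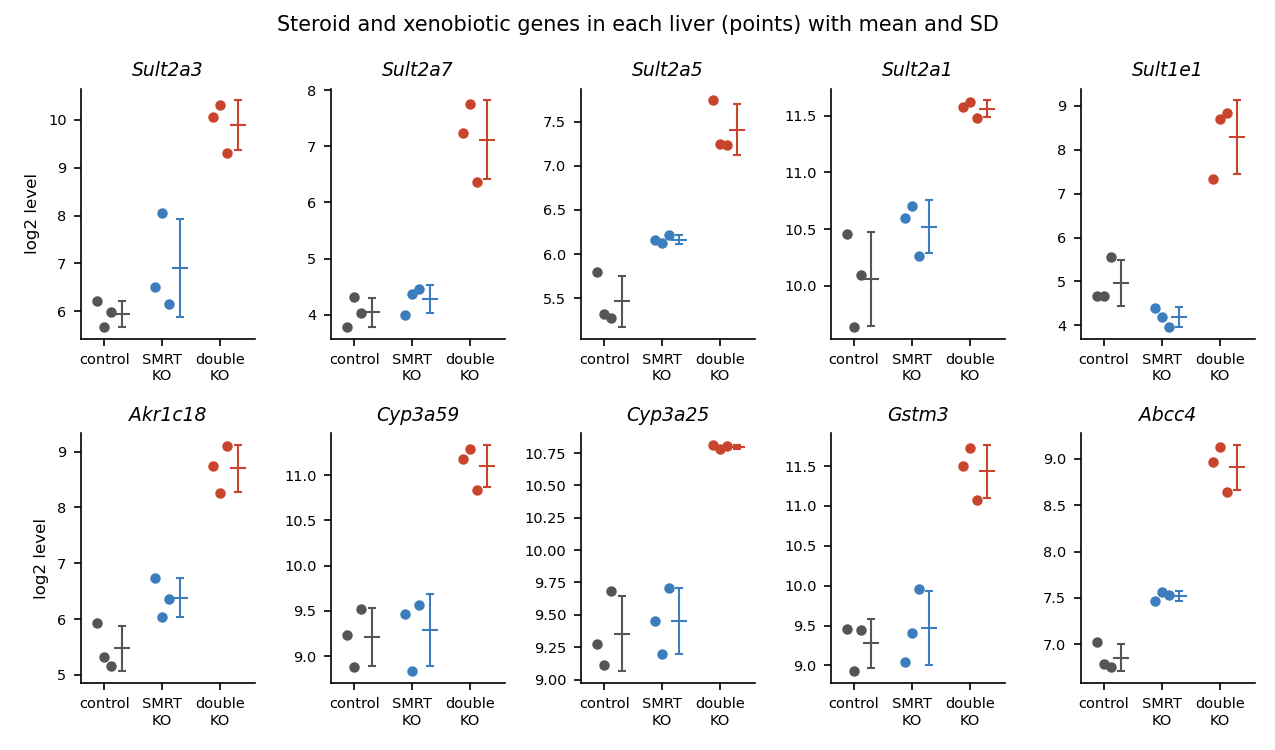
Points are the log2 levels of single livers (grey control, blue SMRT KO, red double KO), with the mean and SD beside each group of 3, for sulfotransferases, Akr1c18, Cyp3a genes, Gstm3 and the exporter Abcc4. Each double KO liver lies above each control, as in every called gene that rose, with differences from 1.44 (Cyp3a25) to 3.94 (Sult2a3).

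Cytochromes P450 of families 1 to 3, which oxidise drugs and steroids, split, with 3 rises, 4 falls and 41 members that did not pass (median -0.06). All 3 rises were neighbours of the Cyp3a cluster on chromosome 5. Promoters of Cyp3a25 and Cyp3a59 are shown because these copies rose together and are nearly the same at the start site. Their windows lie at chr5:146009568-146009867 on the minus strand and chr5:146079008-146079307 on the plus strand (RefSeq, GRCm38.p6).
Cyp3a25: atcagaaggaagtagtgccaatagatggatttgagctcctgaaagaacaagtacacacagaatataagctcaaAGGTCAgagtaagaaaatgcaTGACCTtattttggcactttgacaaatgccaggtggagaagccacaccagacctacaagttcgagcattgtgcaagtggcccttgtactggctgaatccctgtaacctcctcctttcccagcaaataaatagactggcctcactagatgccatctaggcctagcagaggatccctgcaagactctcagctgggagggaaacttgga
Cyp3a59: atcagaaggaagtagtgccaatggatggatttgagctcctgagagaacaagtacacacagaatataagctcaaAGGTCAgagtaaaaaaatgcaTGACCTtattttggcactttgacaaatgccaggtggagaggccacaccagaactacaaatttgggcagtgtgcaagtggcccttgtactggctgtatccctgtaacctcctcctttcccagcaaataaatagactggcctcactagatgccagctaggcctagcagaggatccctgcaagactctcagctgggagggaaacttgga
The windows agree at 289 of 300 positions (96.3%). Both hold the same pair of AGGTCA half-sites, marked in capitals, on the plus strand 177 bases before the start and on the minus strand 156 bases before it. In a global alignment with gaps the windows of Cyp3a11 and Cyp3a25 matched at 48.7% of the 300 bases.

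Cyp3a59 read 9.23, 8.88 and 9.52 in controls and 11.18, 11.29 and 10.83 in double KO livers and rose 3.71-fold (log2 fold change 1.89, with a standard error of 0.218, adjusted p = 0.00540). Cyp3a25 read 9.27, 9.11 and 9.68 against 10.81, 10.78 and 10.81 and rose 2.72-fold (adjusted p = 0.00395). For Cyp3a25 the double KO livers were nearly identical, and neither gene overlapped between groups. Both calls held in all 9 fits, and whether such similar genes share probe signal was not tested. Cyp3a11, the most studied member, rose 1.39-fold, from 11.63 ± 0.124 to 12.11 ± 0.0574 (SD, n = 3 each, adjusted p = 0.0251).

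The P450 genes that fell belonged to other families. Cyp2d9, which hydroxylates testosterone and is known as higher in male liver, read 8.16, 7.66 and 8.24 in controls and 5.78, 5.83 and 6.44 in double KO livers. No gene that passed fell further, at -2.001 on the log2 scale or 4.003-fold lower (standard error 0.210, adjusted p = 0.00357), and the call held in all 9 fits. Of its 3 double KO values, 2 lay under 5.96. Cyp2c38 fell by 0.74 (adjusted p = 0.0438), Cyp2d40 by 0.67 (adjusted p = 0.0119) and Cyp1a2, which oxidises caffeine and aromatic amines, by 0.41 (adjusted p = 0.0239). Cyp2u1 read 8.06, 9.27 and 8.74 against 7.01, 7.04 and 7.55 and did not pass (log2 fold change -1.495, adjusted p = 0.0707). Cyp2a22 had 0.95 (adjusted p = 0.0676). Calls were lost for Cyp2c38 without 7 of the 9 mice in turn, for Cyp2d40 without control mouse 3 or double KO mouse 1 or 3, for Cyp1a2 without control mouse 1 or 3 or any double KO mouse and for Cyp3a11 without control mouse 2 or 3 or any double KO mouse, with adjusted p over all alternatives of up to 0.182, 0.0576, 0.0983 and 0.124.

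Glutathione transferases and NRF2 targets, which meet oxidative stress, had 2 rises and 0 falls among 30 members (median 0.15). Gstm3, a mu-class glutathione transferase, read 9.46, 8.92 and 9.44 in controls and 11.51, 11.73 and 11.07 in double KO livers and rose 4.47-fold (log2 fold change 2.16, with a standard error of 0.249, adjusted p = 0.00540). Abcc4, an exporter of bile acids and sulfated steroids at the blood side of hepatocytes, read 7.03, 6.78 and 6.76 against 8.96, 9.12 and 8.64 and rose 4.13-fold (log2 fold change 2.05, with a standard error of 0.121, adjusted p = 0.000147). Both genes had wholly separate groups and held in all 9 fits. Gstm2 had a log2 fold change of 0.58 (adjusted p = 0.0817) and Gstt1 one of 0.35 (adjusted p = 0.116).

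Bile acid genes showed 1 fall and, with Abcc4, 1 rise among 24 members (median -0.02). Cyp39a1, an oxysterol 7-alpha-hydroxylase, read 10.46, 10.15 and 10.53 in controls and 9.33, 9.56 and 9.60 in double KO livers and fell by 0.89 (adjusted p = 0.0376). The SMRT KO livers, at 10.08, 9.73 and 9.49, lay below the controls and partly within the double KO range. Cyp7a1, the rate-limiting enzyme of bile acid synthesis, read 11.58, 11.48 and 11.98 in controls and 11.46, 12.44 and 12.04 in double KO livers, with overlapping groups (log2 fold change 0.30, with a standard error of 0.337, adjusted p = 0.826). Abcb11, the bile salt export pump, had 0.36 (adjusted p = 0.120), and Slco1b2, an uptake carrier, had -0.29 (adjusted p = 0.155). The Cyp39a1 call was lost without SMRT KO mouse 2, control mouse 1 or 3 or any double KO mouse (adjusted p between 0.0160 and 0.149 over all alternatives).

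Retinoid genes moved in both directions, with 4 rises, 3 falls and 22 members that did not pass (median 0.11). Vitamin A is stored as retinyl ester, oxidised to retinoic acid and then broken down by Cyp26 enzymes. Lrat, which makes retinyl ester, read 8.68, 8.78 and 9.13 in controls and 7.02, 7.19 and 6.97 in double KO livers. Each double KO value was at least 1 log2 unit under each control, and the gene was 3.49-fold lower (log2 fold change -1.80, with a standard error of 0.127, adjusted p = 0.000397), held in all 9 fits. Lrat is a stellate cell marker, and of the 11 markers of that list it alone passed. The average of the list was 8.10 to 8.30 in controls and 7.87 to 8.14 in double KO livers. Lrat is counted in this average and lowers it, so the average is no separate sign of stellate cell content. The part of stellate cell content in the fall of Lrat was not tested.

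Cyp26a1, which degrades retinoic acid, read 7.07, 6.57 and 8.39 in controls and 9.82, 9.77 and 9.65 in double KO livers and rose 5.28-fold (log2 fold change 2.40, with a standard error of 0.380, adjusted p = 0.0239). Control mouse 3 was the highest of its group and still under every double KO liver. Cyp26b1, the related enzyme, had -0.57 (adjusted p = 0.0676). Among the retinol dehydrogenases, Rdh16 rose 1.58-fold (adjusted p = 0.0250), its neighbour Rdh9 fell by 0.91 (adjusted p = 0.0259) and Rdh16f2 fell by 0.70 (adjusted p = 0.00540), and Rdh11 had 0.89 (adjusted p = 0.0629). Aldh1a7, an aldehyde dehydrogenase, rose 1.62-fold (adjusted p = 0.0196). The call of Rdh16f2 held in all 9 fits, and calls were lost for Cyp26a1 without control mouse 1 or any double KO mouse, Aldh1a7 without any double KO mouse, Rdh16 without any control mouse or double KO mouse 1 and Rdh9 without control or double KO mouse 2 or 3, with adjusted p over all alternatives of up to 0.112, 0.0998, 0.0914 and 0.114.

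Genes known to differ between the sexes in mouse liver were measured here in females. Of 32 measured genes known as higher in female liver, 8 rose, 0 fell and 24 did not pass (median 0.36). All 6 called sulfotransferases are among the 8, with Cd36 and Prom1. Prom1, the membrane protein known as CD133, read 6.64, 6.09 and 7.32 in controls and 9.07, 8.94 and 8.32 in double KO livers and rose 4.27-fold (log2 fold change 2.09, with a standard error of 0.313, adjusted p = 0.0194). None of 7 bile duct markers passed, and their average was 5.83 to 5.91 in controls and 5.74 to 5.97 in double KO livers. Of these 7, 2 had both group means under 5.96, and averages so near that level say little about bile duct content. Cyp2c69, a P450 of this list, had -0.56 and did not pass (adjusted p = 0.0838). Log2 fold changes of the list ran from -1.46 to 3.94, with 24 members above 0 and 8 below. The Prom1 call was lost without control mouse 1 or double KO mouse 1 or 2 (adjusted p between 0.0113 and 0.0964 over all alternatives).

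Of 23 measured genes known as higher in male liver, 0 rose, 4 fell and 19 did not pass, with 6 above 0 and a median of -0.37. Log2 fold changes of this list ran from -2.34 to 1.47. Besides Cyp2d9, the genes called as falls were C8a and C8b, described below, and Mup21, a major urinary protein that carries pheromones. Mup21 read 5.13, 5.78 and 5.59 in controls and 4.04, 3.94 and 3.24 in double KO livers (log2 fold change -1.76, with a standard error of 0.291, adjusted p = 0.0276). These values all lay under 5.96, in the range of receptor genes that liver does not use. Mup20 read 10.69, 10.92 and 11.04 against 10.75, 10.25 and 10.54, with overlapping groups (log2 fold change -0.37, adjusted p = 0.561), and Mup3 had -0.61 (adjusted p = 0.112). Selenbp2 had -0.72 (adjusted p = 0.104). The growth hormone axis, which sets these sex differences, had 0 of 18 genes called (median -0.04), with Igf1 at -0.41 (adjusted p = 0.0890) and the receptor Ghr at -0.39 (adjusted p = 0.102). The Mup21 call was lost without any one of the control or double KO mice (adjusted p between 0.0160 and 0.118 over all alternatives).

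Complement is a plasma cascade that hepatocytes secrete. Of 27 measured components, 0 rose, 3 fell and 24 did not pass, 2 of the 27 lay above 0 and the median was -0.20. C8a, a chain of the pore-forming complex, read 10.73, 10.68 and 10.98 in controls and 9.09, 8.59 and 9.02 in double KO livers. The groups lay more than 1 log2 unit apart, and C8a was 3.72-fold lower (log2 fold change -1.90, with a standard error of 0.136, adjusted p = 0.000397), held in all 9 fits. C8b, the adjacent gene for another chain of the complex, read 11.50, 11.64 and 11.74 against 10.73, 10.27 and 10.93 and fell by 0.98 (adjusted p = 0.0251). Fcna, the lectin ficolin A, read 8.91, 8.63 and 8.84 against 7.87, 7.88 and 8.03 and fell by 0.87 (adjusted p = 0.00303), held in all 9 fits.

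Fcna is made by macrophages as well, and of 12 markers of Kupffer cells and macrophages 0 passed, with averages of 8.18 to 8.40 in controls and 8.17 to 8.36 in double KO livers. Hepatocyte markers averaged lower in each double KO liver than in each control, as given above, with 7 of the 8 below 0, 0 called and a median of -0.17. Their part in the falls of secreted proteins was not tested. C2 had 0.55 (adjusted p = 0.195) and C1ra had -0.28 (adjusted p = 0.181). The C8b call was lost without any control mouse or double KO mouse 1 (adjusted p between 0.0134 and 0.109 over all alternatives).

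Acute phase proteins, which the liver secretes in inflammation, showed 2 falls among 23 (median 0.02). Saa4, a constitutive serum amyloid A, fell by 0.43 (adjusted p = 0.0346) and Serpina3n, a protease inhibitor, by 0.40 (adjusted p = 0.0160), from 12.79 ± 0.0259 to 12.40 ± 0.0213 (SD, n = 3 each). Itih3 had -0.53 (adjusted p = 0.131) and Crp had -0.29 (adjusted p = 0.230). Among 25 secreted hepatokines, Agt, the precursor of angiotensin, fell by 0.41 (adjusted p = 0.0371) and Enho, which encodes adropin, by 0.55 (adjusted p = 0.0375), and 0 rose. Angptl8, an inhibitor of lipoprotein lipase, had 0.51 (adjusted p = 0.114). Agt lost its call without 7 of the 9 mice in turn, Enho and Saa4 without 6, and Serpina3n without control mouse 3 or any double KO mouse, with adjusted p over all alternatives of up to 0.165, 0.165, 0.137 and 0.0670.

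Il6ra and Avpr1a were among the genes with the largest falls. Il6ra, the interleukin 6 receptor, read 10.44, 9.93 and 10.14 in controls and 8.44, 8.73 and 8.90 in double KO livers and was 2.79-fold lower (log2 fold change -1.48, with a standard error of 0.206, adjusted p = 0.0136). Avpr1a, the vasopressin receptor of hepatocytes, read 8.47, 9.24 and 8.78 against 7.57, 7.36 and 7.34 and was 2.65-fold lower (log2 fold change -1.41, adjusted p = 0.0118). Neither gene overlapped between the groups. Il1rap, the accessory chain of the interleukin 1 receptor, fell by 0.73 (adjusted p = 0.0227), and its other probe sets gave -0.84 and -0.17. Tnfrsf1b, a tumour necrosis factor receptor, fell by 0.56 (adjusted p = 0.0150) and Fgfr4, the receptor for the gut hormone FGF15, by 0.53 (adjusted p = 0.0438). The last 3 were chosen after their values were seen. Other receptors were not counted. Calls were lost for Il6ra without control mouse 1 or 3 or double KO mouse 1 or 2, for Avpr1a without double KO mouse 2 or 3, for Tnfrsf1b without double KO mouse 1 or 3, for Il1rap without any control or double KO mouse and for Fgfr4 without 8 of the 9 mice in turn, with adjusted p over all alternatives of up to 0.0670, 0.0670, 0.0656, 0.0958 and 0.156.

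The remaining genes with the largest falls were Abca8a, an ABC transporter, Tedc2, a centriole protein, and Ociad2. Abca8a read 10.57, 10.51 and 10.50 in controls and 9.09, 8.64 and 9.48 in double KO livers (log2 fold change -1.45, with a standard error of 0.176, adjusted p = 0.00689). The controls were nearly identical, and the double KO livers all lay at least 1 log2 unit lower. Tedc2 was 2.68-fold lower (adjusted p = 0.00333) and Ociad2 2.61-fold lower (adjusted p = 0.00309). The falls with the smallest p also included Lrrc3 (-1.19, adjusted p = 0.000275), Errfi1, an inhibitor of the EGF receptor (-0.74, adjusted p = 0.00206), and Notum, a secreted enzyme that inactivates Wnt proteins (-0.81, adjusted p = 0.00303). All 6 held in all 9 fits. Notum lost its call when the probe sets of a gene were averaged (adjusted p = 0.206, range 0.00155 to 0.206 over all alternatives).

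**Figure D5:**
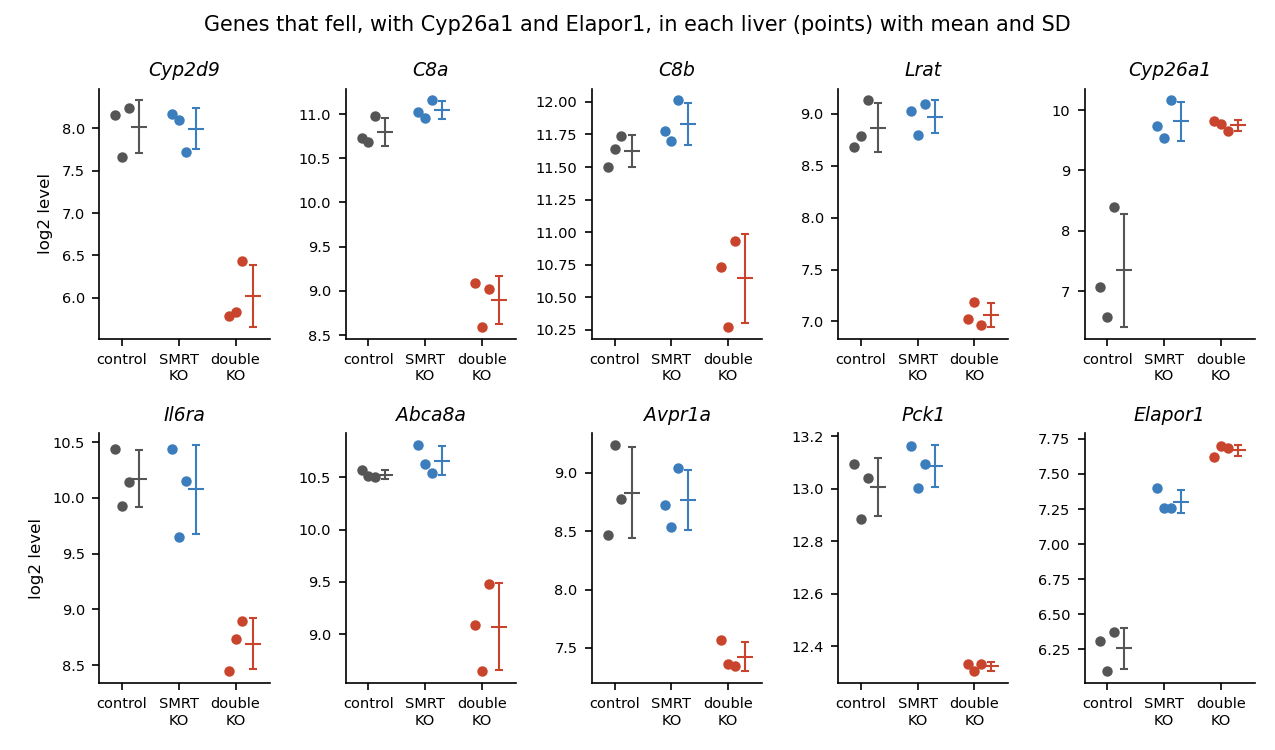
Points are the log2 levels of single livers (grey control, blue SMRT KO, red double KO), with the mean and SD beside each group of 3, for 8 genes that fell and for Cyp26a1 and Elapor1. The falls run from -0.68 (Pck1) to -2.001 (Cyp2d9), and for Cyp26a1 and Elapor1 the SMRT KO livers lie well above the controls too.

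Glucose genes showed 2 falls and 0 rises among 28 (median -0.04). Pck1, the enzyme that commits carbon to gluconeogenesis, read 13.10, 12.88 and 13.04 in controls and 12.33, 12.30 and 12.33 in double KO livers and was 1.61-fold lower (log2 fold change -0.68, with a standard error of 0.0738, adjusted p = 0.00395), held in all 9 fits. Double KO livers were nearly identical and under every control. Gys2, the liver glycogen synthase, fell by 0.71 (adjusted p = 0.0214). Pfkfb3, a regulator of glycolysis, had -0.86 (adjusted p = 0.0617), and Ppp1r3b, which targets a phosphatase to glycogen, had 0.65 (adjusted p = 0.0617). The Gys2 call was lost without control mouse 1 or 3 or double KO mouse 1 or 2 (adjusted p between 0.0115 and 0.0878 over all alternatives).

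Genes induced by thyroid hormone in liver showed 4 rises, 1 fall and 15 members that did not pass (median 0.20). Me1, Fasn and Acaca of the synthesis list and Pck1, the fall, are counted among them. Gpd2, the mitochondrial glycerol-3-phosphate dehydrogenase used as a sign of thyroid hormone action, read 8.30, 8.59 and 8.58 in controls and 9.43, 9.28 and 9.41 in double KO livers and rose 1.84-fold (log2 fold change 0.88, with a standard error of 0.152, adjusted p = 0.0346). Dio1, the deiodinase whose gene is a standard thyroid hormone target, read 11.25, 11.26 and 11.25 against 11.37, 11.45 and 11.39 (log2 fold change 0.15, with a standard error of 0.266, adjusted p = 0.895). Its SMRT KO livers, which enter the same standard error, spread from 9.67 to 10.97. The Gpd2 call was lost without SMRT KO mouse 2 or any control or double KO mouse (adjusted p between 0.00682 and 0.133 over all alternatives).

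Nuclear receptors themselves, the partners of the missing corepressors, showed 1 rise among 38 (median 0.00), that of Pparg, the adipogenic receptor, from 8.07 ± 0.181 to 8.60 ± 0.0693 (SD, n = 3 each, 1.44-fold, adjusted p = 0.0346). Ppard had 0.34 (adjusted p = 0.0960) and Rarb, a retinoic acid receptor that is its own target, had 0.42 (adjusted p = 0.179). None of 21 partners in the corepressor complex and other cofactors passed (median -0.01). Tbl1xr1, a WD-repeat subunit of the complex, had 0.46 (adjusted p = 0.250) and the coactivator Ppargc1a had -0.94 (adjusted p = 0.159). Outside that list, Hdac5, a class II histone deacetylase, rose 1.64-fold (adjusted p = 0.00563), held in all 9 fits, and Tle1, a Groucho-family corepressor, was 1.71-fold lower (adjusted p = 0.0438). Both were chosen after their values were seen. Pparg and Tle1 lost their calls without 8 of the 9 mice in turn, with adjusted p over all alternatives between 0.0107 and 0.158 and between 0.0186 and 0.165.

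Other processes showed few or no calls. The urea cycle and amino acid breakdown had 0 of 34 called (median -0.08), with Ass1, the argininosuccinate synthase, at -0.59 (adjusted p = 0.216) and Tdo2, the tryptophan oxygenase, at -0.33 (adjusted p = 0.198). The circadian clock had 0 of 18, with Per1 at -0.64 (adjusted p = 0.0763) and Npas2 at 0.34 (adjusted p = 0.237). Interferon-responsive genes had 0 of 37, with Iigp1 at -0.35 (adjusted p = 0.0652). In the cell cycle list 0 of 28 passed, and Ccnd1, cyclin D1, had 0.65 (adjusted p = 0.206) and Nusap1 had 0.27 (adjusted p = 0.237). Matrix and fibrosis genes had 0 of 28, with Pdgfra at -0.39 (adjusted p = 0.236) and Pdgfa at 0.33 (adjusted p = 0.225). At an unadjusted p below 0.05 the whole comparison counted 2389 genes.

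In the list of endoplasmic reticulum and cell stress 1 of 29 members rose (median -0.13). This was Gadd45b, a stress-induced gene that read 6.59, 6.75 and 6.63 in controls and 7.73, 8.11 and 8.46 in double KO livers and rose 2.72-fold (adjusted p = 0.0195). Herpud1 had -0.48 (adjusted p = 0.0805) and Ddit4 had -0.47 (adjusted p = 0.360). Gadd45b lost its call without control mouse 1 or 3 or double KO mouse 2 or 3 (adjusted p between 0.00923 and 0.0942 over all alternatives).

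Among the rises with the smallest p were Elapor1, a transmembrane protein of endosomes and lysosomes, Ces2a, a carboxylesterase that hydrolyses acylglycerols and drugs, and Dnah11, an axonemal dynein heavy chain. Ces2a read 11.04, 10.73 and 11.04 in controls and 12.56, 12.71 and 12.52 in double KO livers and rose 3.15-fold (log2 fold change 1.66, with a standard error of 0.0979, adjusted p = 0.000147). Dnah11 read 6.07, 6.22 and 6.12 against 7.35, 7.21 and 7.31 and rose 2.22-fold (adjusted p = 0.000397). Both had tight, separate groups, and their calls held in all 9 fits. Gulo, the last enzyme of vitamin C synthesis, fell by 0.64 (adjusted p = 0.00508), also held in all 9 fits, and Hao1, the glycolate oxidase of peroxisomes, fell by 0.94 (adjusted p = 0.0475). Both of these were chosen after their values were seen. Hao1 lost its call without 8 of the 9 mice in turn (adjusted p between 0.0202 and 0.167 over all alternatives).

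Ighm, the immunoglobulin mu heavy chain, also chosen after its values were seen, read 8.14, 8.42 and 8.61 in controls and 9.82, 10.85 and 9.86 in double KO livers and rose 3.45-fold (adjusted p = 0.0182). Its 6 other probe sets gave log2 fold changes from -0.02 to 0.24. Lymphocyte markers averaged 5.71 to 5.86 in controls and 5.74 to 5.86 in double KO livers, with 0 of 10 called. Of these 10, 5 had both group means under 5.96, so the averages say little about lymphocyte content. The Ighm call was lost without control mouse 1 or 3. With the mean of its probe sets the adjusted p was 0.390 (range 0.0108 to 0.390 over all alternatives).

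Called genes were sometimes neighbours. Among 22139 genes placed in chromosome order, 11 adjacent pairs were both called, 8 of them in the same direction. Over all genes 0.843% were called. Adjacent means next among the measured genes, and the count of pairs was not tested. Pairs of paralogs with 1 direction were Acot2 and Acot1, C8b and C8a, Cyp3a11 with Cyp3a25 and Cyp3a25 with Cyp3a59, Sult2a1 with Sult2a4 and Sult2a4 with Sult2a3, and Serpinb1a with Serpinb1c. Whether the probe sets of such paralogs share signal was not tested. Pnpla3 and Samm50 are unrelated in sequence and rose together, by 3.72 and 0.56. Rdh9 and Rdh16, whose start-site windows matched at 67.0% of the 300 bases after alignment with gaps, moved in opposite directions, by -0.91 and 0.66. Car3 and Car2, carbonic anhydrases chosen after their values were seen, did so too: Car3 fell by 0.43 (adjusted p = 0.0346) and Car2 rose 1.91-fold (adjusted p = 0.00508). Cyp39a1 fell and its neighbour Rcan2, an inhibitor of calcineurin, rose by 1.75 on the log2 scale. Rcan2, Serpinb1a and Serpinb1c were also chosen after their values were seen. Car2 held in all 9 fits, and Car3 lost its call without 8 of the 9 mice in turn (adjusted p between 0.0160 and 0.140 over all alternatives).

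Levels in SMRT KO livers are set beside those of double KO livers. Double KO against SMRT KO shares its double KO mice with the comparison above, and called 263 of 22180 genes (1.19%). Pnpla3 read 6.91, 6.83 and 6.82 in SMRT KO livers, and the double KO livers stood 3.22 log2 units higher (standard error 0.150, adjusted p = 6.3e-05). Sult1e1 read 4.40, 4.20 and 3.96, with a measured difference of 4.10 (adjusted p = 0.00204). These SMRT KO values all lay under 5.96, so the size of that difference is not well measured. Sult2a3 read 6.50, 8.06 and 6.16, with a difference of 2.98 (adjusted p = 0.0148), and SMRT KO mouse 2 stood apart from the others of its group.

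C8a read 11.02, 10.96 and 11.16 in SMRT KO livers, from which double KO livers differed by -2.14 (adjusted p = 0.000351). Lrat differed by -1.91 (adjusted p = 0.000391), Cyp2d9 by -1.98 (adjusted p = 0.00339) and Pck1 by -0.76 (adjusted p = 0.00219). Of the lipid genes, Acaca differed by 1.07 (adjusted p = 0.00354), Elovl6 by 1.52 (adjusted p = 0.0168), Fasn by 1.08 (adjusted p = 0.0129), Ehhadh by 1.64 (adjusted p = 0.00279) and Pltp by 2.17 (adjusted p = 0.00210).

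For 2 called genes, Cyp26a1 and Pparg, the difference from SMRT KO livers was smaller than its standard error. Cyp26a1 read 9.73, 9.54 and 10.16 in SMRT KO livers, which overlapped the double KO range of 9.65 to 9.82 (difference -0.07, with a standard error of 0.380, adjusted p = 0.979). Pparg read 8.63, 8.60 and 8.65 in SMRT KO livers and 8.62, 8.65 and 8.52 in double KO livers (difference -0.03, with a standard error of 0.0903, adjusted p = 0.948). Elapor1 had SMRT KO levels above every control and under every double KO liver. It read 6.31, 6.09 and 6.37 in controls, 7.40, 7.25 and 7.25 in SMRT KO and 7.62, 7.70 and 7.68 in double KO livers. It rose 2.66-fold against control (adjusted p = 0.000147, held in all 9 fits) and stood 0.37 above SMRT KO (standard error 0.0839, adjusted p = 0.0903).

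Intermediate SMRT KO levels were seen in other genes. Abcc4 read 7.47, 7.57 and 7.53 in SMRT KO livers, above every control and under every double KO liver, and double KO livers stood 1.38 higher (adjusted p = 0.00186). Sult2a5 read 6.16, 6.12 and 6.22, likewise between the groups, with double KO livers 1.24 higher (adjusted p = 0.00815). For Cd36 the step from SMRT KO to double KO was 0.66 (adjusted p = 0.0539), and for Cyp39a1 it was -0.27 (adjusted p = 0.629). A difference that misses the threshold does not show that the levels are alike.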

How the data were processed

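Affymetrix whole-transcript arrays read liver RNA of 9 mice. The values deposited by the authors are log2 levels for each probe set and array. Per the submitters' processing notes they come from RMA, with no version named. RMA normalizes all arrays together, and shifts common to most genes are removed by it. Groups came from the sample titles, with 0 columns left unmatched.

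Of 41345 probe sets, 23521 had 1 gene symbol in the platform annotation, 1814 had several and 16010 were not listed. Entrez identifiers placed 23328 of the 23521 in RefSeq, with 0 symbols renamed. Where a gene had several probe sets, as 1082 did, the one with the highest mean over the arrays was kept, which left 22180 genes with no filter on level. Arrays give no read depth, and their number limits the precision.

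The test was two-sided, with lmFit and eBayes of limma 3.58.1 (R 4.3.3), over all 9 arrays with no block, giving 6 residual and 3.36 prior degrees of freedom, and p-values were adjusted by Benjamini-Hochberg over all genes. All adjusted p-values are from limma. The steps were tested on simulated data. An exact permutation test of 3 mice against 3 cannot go below 0.1 and was not used. Levels carry SDs over 3 mice, and fold changes carry the fit's standard error.

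Named genes were the 10 largest called rises and falls, the 5 smallest p in each direction, per list up to 6 called members and the 2 uncalled members of smallest p, and a few fixed genes, and others are marked as chosen after their values were seen. The comparison, the lists and the rule were chosen with earlier results of these data known, so no list is independent evidence. Promoter windows are RefSeq's (GRCm38.p6) and were searched on both strands, and 128 of 153 named genes had one.

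The alternatives were the 6 arrays alone, the replicate block, 1 mouse left out, trend and robust eBayes, array weights, cyclic loess, median centring, the mean of probe sets, dim genes left out and, chosen after seeing the data, all probe sets tested. Same-numbered control and double KO mice had correlations of 0.05, 0.02 and 0.01 in their deviations from group means, so the numbers were not taken as pairs.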

Additional observations from a re-analysis of the deposited data

Results flagged for a closer look

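Probe sets that the annotation did not list gave signal outside the comparison of named genes. When all 41345 probe sets were tested together with limma, 9 of the 16010 unlisted probe sets passed an adjusted p of 0.05, of which 6 were higher and 3 lower in double KO livers, with log2 fold changes from -0.95 to 2.22. They are unnamed here, and 0 of the 1814 probe sets with several symbols passed.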

How the results depend on the processing

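The 187 calls (116 higher, 71 lower, 63 at least 2-fold) became 109 (71, 38 and 53) with the 6 control and double KO arrays alone, 285 (153, 132 and 79) with array weights and 69 (48, 21 and 41) with all probe sets tested, chosen after seeing the data, where more features are adjusted for. Leaving out 1 mouse gave 61 to 179 calls, 41 to 113 higher, 20 to 84 lower and 34 to 63 at least 2-fold, each lowest without double KO mouse 2. With the replicate block the counts were 152, 94, 58 and 60. The numbers do not pair the mice. Trend and robust eBayes gave 218, cyclic loess 206, median centring 189 (108 higher and 81 lower), the mean of probe sets 192 and leaving out dim genes 254 among 13152. Of the 187 calls 50 (35 higher and 15 lower) held under every setting that tested the gene, and 88 remained with the 6 arrays alone. Of the named genes only Fgf21, uncalled in each, turned sign, to 0.0315 without control mouse 2, 0.00259 without double KO mouse 3 and 0.00286 with array weights (range -0.12 to 0.0315 with 1 mouse left out). The cause of these shifts was not tested. Signal over background limits low genes: 22 of the 116 that rose had a control mean, and 8 of the 71 that fell a double KO mean, under 5.96, and for 5 and 7 of them both means were.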
